A study of Rattus norvegicus with 24 samples.

Results

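Activins and myostatin are ligands of the transforming growth factor-beta (TGF-beta) family that restrain muscle mass. They bind type II receptors, which recruit and activate type I receptors, and these phosphorylate the effector proteins Smad2 and Smad3 that act in the nucleus. Follistatin-type proteins trap the ligands outside the cell, and Smad7 opposes the signal inside it. The 10 genes described here cover these steps in the medial gastrocnemius of the rat. They comprise the ligands Inhbb and Mstn, the ligand traps Fst and Fstl3, the receptors Acvr2a, Acvr2b and Acvr1b, the effectors Smad2 and Smad3, and the inhibitor Smad7. They were taken by gene symbol from the 10851 genes of the deposited table, and all 10 were found. The family was picked with earlier results of these rats known, in which the higher Inhbb level after monocrotaline was already seen, so Inhbb in the monocrotaline comparisons is described without a test.

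Male Wistar rats received a single injection of monocrotaline, a plant alkaloid that damages the lung vessels and leads to right heart failure, or saline. The saline rats were either sedentary (Sed) or trained aerobically on a treadmill (Ex), and the rats with monocrotaline, the cardiac cachexia (CC) groups, were likewise sedentary (CC-Sed) or trained (CC-Ex). Each group held 6 rats, and each rat was a library of its own, made from poly-A RNA of the left muscle. All 4 groups carried out an exercise test, and the tissue was taken after a rest period. The rats carried no genetic change, and their age is not given in the sources used here. The comparisons ask how monocrotaline changed the muscle in sedentary rats (Sed vs. CC-Sed) and in trained rats (Ex vs. CC-Ex), and how training changed it with and without monocrotaline.

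The total count per rat lay between 37816239 and 50350554, and no pair of libraries was alike enough to be the same library deposited again. Skeletal muscle markers (11 of 12 analysed) summed to between 134100 and 279800 CPM in every rat, so the defining genes of the labelled tissue were abundant. Values for a gene are given as CPM, its counts as a share of the library's total, scaled by the trimmed mean of M-values (TMM), a correction for differences in RNA composition between libraries. They are not divided by transcript length, so levels of different genes were not compared. In whole muscle, fewer cells of a type and less RNA per cell cannot be told apart. Among the CC-Ex rats, the library labelled replicate 4 stood apart from its label. Of the 150 genes that were higher in CC-Sed by the criteria below, 130 lay within or below the Ex range in that rat, against 78 in replicate 1 and 14 to 32 in the other CC-Ex rats. Whether the label of this library is right cannot be told from the files. Values for Ex vs. CC-Ex are therefore also given without it. The rat was set apart by low levels of genes that were higher after monocrotaline. Leaving it out thus favours larger monocrotaline effects and is no independent check.

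Inhbb encodes the beta-B subunit, which pairs with itself to form activin B. Its promoter is shown because Inhbb was the gene of the family whose groups lay furthest apart. The 250 bases before the gene's start in RefSeq lie at chr13:33089374-33089623 of build GRCr8, on the minus strand, and are printed in the direction of transcription with the GC-box motif GGGCGG, searched on both strands, in capitals.
Inhbb: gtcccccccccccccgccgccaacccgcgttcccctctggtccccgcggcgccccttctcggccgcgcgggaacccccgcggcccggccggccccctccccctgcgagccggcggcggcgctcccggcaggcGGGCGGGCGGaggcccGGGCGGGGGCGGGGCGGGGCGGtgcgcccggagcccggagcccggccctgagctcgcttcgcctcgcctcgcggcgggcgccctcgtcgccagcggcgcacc
The window is 86.8% G and C, against a median of 51.2% over all 33469 promoter windows of this length. It holds 6 GC-box matches, some of which overlap, and 30.5% of all windows hold at least 1. The Smad element CAGAC, held by 42.9% of all windows, the FoxO element GTAAACA, held by 3.21%, and the TATA box TATAAA, held by 12.9%, were not found in these letters.

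Inhbb was low in saline muscle and about 4-fold higher after monocrotaline, in sedentary and in trained rats. In Sed the lowest, median and highest rats had 0.574, 0.948 and 1.198 CPM, and in Ex they had 0.469, 0.914 and 1.26 CPM. In CC-Sed they had 2.67, 3.39 and 6.18 CPM, so that every CC-Sed rat lay above every Sed rat, as was the case for 2.32% of all genes. In CC-Ex they had 0.960, 4.82 and 5.81 CPM. The lowest CC-Ex value was that of replicate 4, which lay inside the saline range, while the other CC-Ex rats lay at 2.79 CPM or above and clear of all saline rats. The values rest on 22 to 49 counts per saline rat and 40 to 304 counts per CC rat.

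The mean was 0.937 ± 0.216 CPM in Sed and 3.82 ± 1.26 CPM in CC-Sed (SD, n = 6 each), a fold of 4.08 and a log2 fold change of 2.03 (SE 0.334). In trained rats the mean was 0.922 ± 0.304 CPM with saline and 4.15 ± 1.97 CPM with monocrotaline (SD, n = 6 each), a fold of 4.50 and a log2 fold change of 2.17 (SE 0.335). Without CC-Ex replicate 4 the latter was 2.38 (SE 0.263). Ranked by the size of an increase, Inhbb stood at place 38 of the 10851 genes in the sedentary comparison and at place 33 in the trained one. The endothelial markers (8 of 10 analysed) had median sums of 231.8 CPM in Sed, 284 CPM in CC-Sed, 242.9 CPM for Ex and 318.1 CPM for CC-Ex. The ranges of that sum overlapped between all groups. By gene, 3 of the 8 markers had a positive and 5 a negative log2 fold change in Sed vs. CC-Sed, with a median of -0.14. In Ex vs. CC-Ex, 5 were positive and 3 negative, with a median of 0.04. The largest value was that of Vwf, at 1.41 and 1.12, so the higher sums did not stand for the markers as a set. The part of endothelial cells in the Inhbb difference was not tested.

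**Figure D1:**
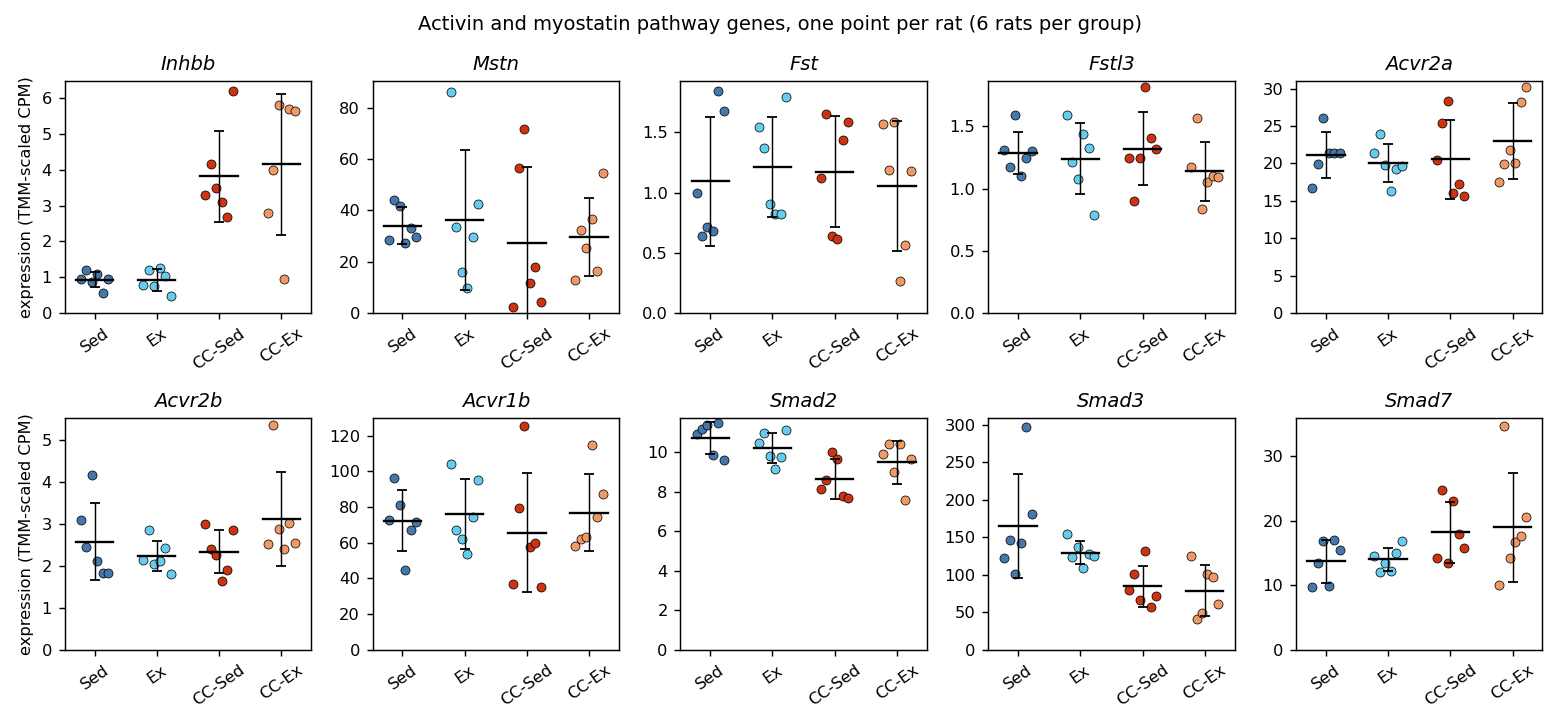
Expression of the 10 genes in CPM scaled by TMM (vertical axes, each starting at 0) in Sed, Ex, CC-Sed and CC-Ex (horizontal axes). Each point is 1 rat, the long bar is the mean of 6 rats and the error bar is the SD, cut off at 0 where it would be negative; all CC-Sed rats lie above 2.6 CPM for Inhbb, where no saline rat exceeds 1.3 CPM, and Mstn in CC-Sed spreads from 2.23 to 71.6 CPM.

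Mstn encodes myostatin, a negative regulator of muscle growth made mainly by muscle fibres. Its level varied more between CC-Sed rats than that of any other gene of the family in any group, with a coefficient of variation (SD as a share of the mean) of 107%. In Sed the lowest, median and highest rats had 27.4, 31.3 and 44.02 CPM, and in Ex they had 9.91, 31.5 and 86.0 CPM. In CC-Sed they had 2.23, 14.8 and 71.6 CPM, a 32.1-fold range, and in CC-Ex they had 12.7, 28.9 and 54.5 CPM. Both ends of the CC-Sed range thus lay outside the Sed range, with 4 rats below the Sed median and 2 rats above it. The log2 fold change was -0.32 in sedentary rats (SE 0.609, 95% interval -1.57 to 0.94, edgeR adjusted p = 0.756) and -0.29 in trained rats (SE 0.608, 95% interval -1.55 to 0.97, edgeR adjusted p = 0.785). In sedentary rats the value rested on single rats, at -0.88 when CC-Sed replicate 3 was left out and -0.09 when it was replicate 1, and it was -1.02 with limma-voom (adjusted p = 0.232). No difference was detectable, and the intervals leave room for a change of more than 1 log2 unit downward. Without CC-Ex replicate 4 the trained value was -0.36 (edgeR adjusted p = 0.734).

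The promoter table holds no entry for Mstn and Fst. Markers of slow fibres also differed between rats. The summed slow-fibre markers (5 of 8 analysed) had medians of 2070 CPM in Sed, 3675 CPM in Ex, 6309 CPM in CC-Sed and 5410 CPM in CC-Ex, and ranged from 1170 to 11810 CPM among the CC-Sed rats. Within groups, the correlation of Mstn with the mean log2 level of these markers was r = -0.40 (Spearman's rho -0.40, 24 rats, permutation p = 0.0423 and 0.0483), and it did not pass adjustment over the 10 genes (adjusted p = 0.141 and 0.161). It was not particular to Mstn. For Acvr1b r was -0.54 (Spearman's rho -0.54, permutation p adjusted to 0.0665 and 0.0631). For Acvr2a r was -0.48 (Spearman's rho -0.51, permutation p adjusted to 0.141 and 0.0969). With the slow-fibre level as a covariate, the sedentary Mstn difference was -0.18 (SE 0.564, edgeR adjusted p = 0.83).

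Fst and Fstl3 encode follistatin and follistatin-like 3, which bind activins and myostatin and keep them from their receptors. Both were scarce and neither differed detectably with monocrotaline. Fst lay between 0.637 and 1.84 CPM in Sed, between 0.823 and 1.79 CPM in Ex, between 0.614 and 1.65 CPM in CC-Sed and between 0.264 and 1.58 CPM in CC-Ex. The lowest Fst value, 11 counts, was again that of CC-Ex replicate 4. The ranges overlapped throughout. The log2 fold change of Fst was 0.11 in sedentary rats (SE 0.374, edgeR adjusted p = 0.873) and -0.19 in trained rats (SE 0.373, edgeR adjusted p = 0.77), and 0.01 in trained rats without replicate 4. Fstl3 was the steadier of the pair, with group means of 1.29, 1.24, 1.32 and 1.14 CPM in Sed, Ex, CC-Sed and CC-Ex and SDs of 0.171 to 0.296 CPM. Its log2 fold change was 0.04 in sedentary rats (95% interval -0.33 to 0.40) and -0.12 in trained rats (95% interval -0.49 to 0.25), so a doubling of Fstl3 lay outside both intervals. Without CC-Ex replicate 4 the trained value was -0.10.

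Acvr2a and Acvr2b encode the type II receptors for activins and myostatin, and Acvr1b encodes ALK4, a type I receptor that passes their signal to Smad2 and Smad3. None of them passed the test in either monocrotaline comparison. Acvr2a lay between 15.7 and 30.2 CPM over all rats, with group means of 21.1, 20.1, 20.5 and 22.9 CPM in Sed, Ex, CC-Sed and CC-Ex. Its log2 fold change was -0.04 in sedentary rats (95% interval -0.36 to 0.28) and 0.19 in trained rats (95% interval -0.13 to 0.52), or 0.23 without CC-Ex replicate 4.

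Acvr2b had the largest receptor difference. In Ex the lowest, median and highest rats had 1.81, 2.13 and 2.86 CPM, and in CC-Ex they had 2.40, 2.71 and 5.35 CPM. All 6 CC-Ex rats lay above the Ex median, but the groups overlapped, and the highest value came from replicate 2 alone. The log2 fold change in trained rats was 0.48 (SE 0.221, edgeR adjusted p = 0.20), and it was 0.26 without CC-Ex replicate 2 (edgeR adjusted p = 0.432) and 0.55 without replicate 4 (edgeR adjusted p = 0.122). In sedentary rats it was -0.14 (SE 0.221, edgeR adjusted p = 0.707). The difference between these effects was 0.62 (SE 0.312, 95% interval -0.03 to 1.26, edgeR adjusted p = 1) and was not detectable.

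Acvr1b lay between 44.5 and 96.4 CPM in Sed, between 53.5 and 104.2 CPM in Ex, between 34.98 and 125.3 CPM in CC-Sed and between 58.4 and 114.9 CPM in CC-Ex. As for Mstn, the CC-Sed rats spread to both sides of the Sed range. The log2 fold change was -0.14 in sedentary rats (95% interval -0.68 to 0.40, edgeR adjusted p = 0.751) and 0.01 in trained rats (95% interval -0.53 to 0.55, edgeR adjusted p = 0.983), where it turned to -0.14 without CC-Ex replicate 4 (edgeR adjusted p = 0.744).

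Smad3 encodes an effector that binds DNA. Smad2 encodes its partner, whose main form does not bind DNA by itself. Both passed the test with lower levels in CC-Sed than in Sed, by unequal amounts, and both calls lay close to the threshold. The Smad3 call was lost with the replicate block (edgeR adjusted p = 0.0516) and with the library number as a covariate (edgeR adjusted p = 0.0538). Library numbers were not balanced over the groups. They ran from 9 to 24 in Sed, 7 to 23 in Ex, 4 to 21 in CC-Sed and 1 to 14 in CC-Ex. That covariate thus overlaps in part with monocrotaline. The Smad2 call was lost with the replicate block (edgeR adjusted p = 0.0623) and with the 12 sedentary rats fitted alone (edgeR adjusted p = 0.0557). Smad3 had 100.5, 144.5 and 296.4 CPM in the lowest, median and highest Sed rats and 56.7, 75.8 and 131.4 CPM in CC-Sed. In Ex it had 109.2, 126.6 and 154.3 CPM, and in CC-Ex it had 40.4, 78.8 and 124.7 CPM. Each CC rat lay below the median of its saline group, though the ranges overlapped in both comparisons, and the highest Sed value was that of replicate 5. The Smad3 mean was 165 ± 69.8 CPM in Sed and fell to 84.5 ± 27.4 CPM in CC-Sed (SD, n = 6 each), a log2 fold change of -0.97 (SE 0.27, edgeR adjusted p = 0.0389), or 0.512 of the Sed level. In trained rats the means were 129.5 ± 15.0 and 78.8 ± 33.6 CPM (SD, n = 6 each), a log2 fold change of -0.72 (SE 0.269, edgeR adjusted p = 0.134), and -0.80 without CC-Ex replicate 4 (edgeR adjusted p = 0.077).

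The difference between the sedentary and trained Smad3 effects was 0.25 (95% interval -0.53 to 1.03, edgeR adjusted p = 1), and its direction was not stable, at -0.002 without Sed replicate 5 and -0.13 with limma-voom. Over all 24 rats, the mean of both effects was -0.84 (SE 0.19, edgeR adjusted p = 0.00412), with 12 of 12 CC rats below the median of the saline rats. The sedentary call rested on single rats. It was lost when Sed replicate 2, 4, 5 or 6 or CC-Sed replicate 1, 3, 5 or 6 was left out (edgeR adjusted p = 0.0526 to 0.0972), with a log2 fold change of -0.72 without Sed replicate 5. The mean over both comparisons passed in all 24 fits that left out 1 rat, between -0.93 and -0.72. With the slow-fibre level as a covariate it was -0.81 (SE 0.181, edgeR adjusted p = 0.00305).

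The Smad3 promoter is shown beside that of Inhbb because these genes had the largest differences of the family, in opposite directions. It lies at chr8:73132325-73132574 of GRCr8 in RefSeq, on the minus strand, with the GC-box motif, here on the other strand, in capitals.
Smad3: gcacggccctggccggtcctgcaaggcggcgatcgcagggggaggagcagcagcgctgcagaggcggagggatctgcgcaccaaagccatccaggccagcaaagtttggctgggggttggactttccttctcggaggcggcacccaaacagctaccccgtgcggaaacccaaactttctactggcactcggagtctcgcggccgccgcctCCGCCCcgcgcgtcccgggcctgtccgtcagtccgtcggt
The window is 68.4% G and C and holds 1 GC-box match. It also holds 1 match of the cAMP half-site TGACG on either strand, a motif found in 18.2% of all windows and not in that of Inhbb. CAGAC was found in neither.

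Smad2 was the least variable gene of the family, with coefficients of variation of 7.53% to 11.5% within groups. It had 9.57, 11.0 and 11.5 CPM in the lowest, median and highest Sed rats and 7.65, 8.35 and 10.0 CPM in CC-Sed. In Ex it had 9.13, 10.1 and 11.1 CPM, and in CC-Ex it had 7.55, 9.78 and 10.4 CPM. All 6 CC-Sed rats lay below the Sed median, with some overlap of the ranges. The Smad2 level fell by 0.31 on the log2 scale in sedentary rats (SE 0.093, edgeR adjusted p = 0.0479), to 0.805 of the Sed level. In trained rats its log2 fold change was -0.10 (SE 0.093, edgeR adjusted p = 0.493), or -0.13 without CC-Ex replicate 4 (edgeR adjusted p = 0.365). The mean of both effects was -0.21 (SE 0.066, edgeR adjusted p = 0.0239). The sedentary call was lost without any 1 of Sed replicates 1 to 5 or CC-Sed replicates 1, 5 or 6 (edgeR adjusted p = 0.0579 to 0.125), while the mean of both effects passed in all 24 such fits.

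Smad7 encodes an inhibitory Smad that directs type I receptors to degradation and is itself induced by the pathway. It lay between 9.72 and 16.9 CPM in Sed, between 12.1 and 16.8 CPM in Ex, between 13.5 and 24.7 CPM in CC-Sed and between 10.0 and 34.7 CPM in CC-Ex. The CC ranges reached higher but overlapped those of the saline rats, and the highest value was that of CC-Ex replicate 2, the rat that was also highest for Acvr2b. The log2 fold change was 0.41 in sedentary rats (SE 0.226, edgeR adjusted p = 0.235) and 0.44 in trained rats (SE 0.226, edgeR adjusted p = 0.246), or 0.47 without CC-Ex replicate 4 (edgeR adjusted p = 0.194). The mean of both effects was 0.42 (SE 0.16, edgeR adjusted p = 0.052), just short of the threshold, and it passed without Sed replicate 3 or 5, CC-Sed replicate 3 or CC-Ex replicate 1, 3 or 4 (edgeR adjusted p = 0.018 to 0.0498).

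A differentially expressed gene (DEG) was one with an edgeR adjusted p-value under 0.05 and a log2 fold change of at least 1 in size. Inhbb met both criteria in each monocrotaline comparison, which is a description and no test, since its higher level was known when the family was chosen. It is left out of the counts that follow. Of the other 9 genes, none was a DEG in Sed vs. CC-Sed, where 1.87% of all genes were, in Ex vs. CC-Ex, where 0.525% were, or for the mean of both effects, where 2.88% were. DESeq2 also made none of the 9 a DEG in these comparisons. An unadjusted edgeR p-value under 0.05 was held by 2, 2 and 3 of the 9, beside 28.4%, 22.6% and 42.4% of all genes. The DEG share of all genes in Ex vs. CC-Ex hung on single rats. It stood for 57 genes, with 251 without CC-Ex replicate 4, 201 without CC-Ex replicate 1, 30 to 36 without CC-Ex replicate 3 or 2, and 2 to 3 without any 1 of the Ex rats or CC-Ex replicate 5 or 6. In Sed vs. CC-Sed it stood for 203 genes, with 73 to 404 when 1 rat was left out.

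By the adjusted p-value alone, 2 of the 9 passed in Sed vs. CC-Sed, where 6.46% of all genes did. Both, Smad2 and Smad3, were lower, where 2.16% of all genes were. When 1 rat was left out 0 to 2 passed, where 1.59% to 15.9% of all genes did in either direction. In Ex vs. CC-Ex none was lower, where 0.12% of all genes were. For the mean of both effects the same 2 of the 9 passed, where 27.8% of all genes did, so that this share was not above that of the table. The median log2 fold change over the 9 genes was -0.14 in sedentary and -0.10 in trained rats, beside 0.02 and 0.01 over all genes. Both comparisons share no rats.

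**Figure D2:**
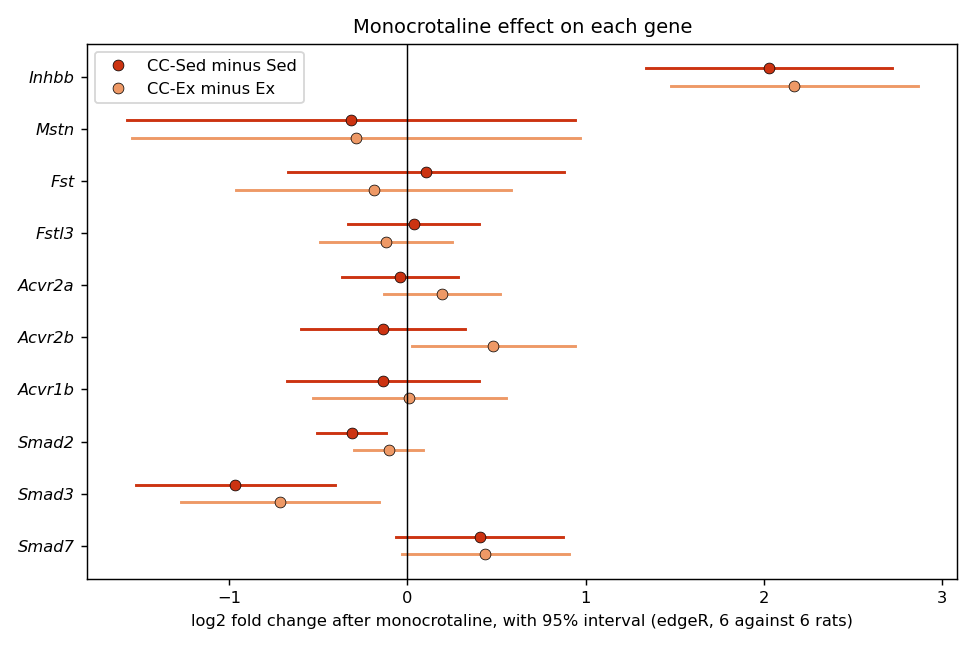
Log2 fold change of each of the 10 genes after monocrotaline (horizontal axis, 0 marked by the vertical line) for CC-Sed minus Sed and CC-Ex minus Ex, with bars for the 95% interval of the edgeR fit. Inhbb lies near 2 in both comparisons, Smad3 lies at -0.97 and -0.72, and the interval of Mstn is the widest, from -1.57 to 0.94 in sedentary rats.

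Training moved none of the 10 genes detectably. No gene of the whole table passed in Sed vs. Ex, in CC-Sed vs. CC-Ex or in the interaction with edgeR or with DESeq2 (0% called). Unadjusted edgeR p-values under 0.05 were held by 118, 234 and 154 genes (1.09%, 2.16% and 1.42%) in these comparisons, and by none of the 10. Without CC-Ex replicate 4 there was again no gene called in CC-Sed vs. CC-Ex with edgeR. Between Sed and Ex the log2 fold changes ran from -0.35 for Smad3 (95% interval -0.90 to 0.20) to 0.15 for Fst (95% interval -0.63 to 0.92). Between CC-Sed and CC-Ex they ran from -0.21 for Fstl3 (95% interval -0.58 to 0.16) to 0.41 for Acvr2b (95% interval -0.05 to 0.87). The training difference of Inhbb was -0.02 in saline rats (95% interval -0.72 to 0.68) and 0.12 in CC rats (95% interval -0.53 to 0.76), each with an edgeR adjusted p = 1. The monocrotaline effect on Inhbb differed between trained and sedentary rats by 0.14 (SE 0.461, 95% interval -0.81 to 1.097, edgeR adjusted p = 1). For the mean training effect over saline and CC rats, the 10 genes lay between -0.23 for Smad3 and 0.15 for Acvr1b, and 0% of all genes were called.

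Among the 10 genes, Mstn and Acvr1b were the only pair that varied together within groups after adjustment. After the group means were removed, their log2 levels had r = 0.85 (Spearman's rho 0.859) over 24 rats (permutation p = 3e-05 and 1e-05, the latter the smallest that the permutations can give). Adjusted over the 45 pairs these were 0.00135 and 0.00045, and r was 0.781 without the 2 rats farthest from the median of Mstn. In CC-Sed the rats with the least Mstn, replicates 1 and 6, were also those with the least Acvr1b, at 36.98 and 34.98 CPM, and replicate 3 was highest for both. Within groups both genes had a negative r with the slow-fibre level, -0.40 for Mstn and -0.54 for Acvr1b. The part of fibre type in this pair was not tested. Inhbb correlated detectably with none of the other 9 genes within groups. Its r ran from -0.475 with Smad2 (Spearman's rho -0.508, permutation p = 0.055 and 0.0208, adjusted p = 0.302 and 0.126) to 0.344 with Acvr2b (Spearman's rho 0.464, permutation p = 0.15 and 0.0279, adjusted p = 0.338 and 0.126). Without the 2 rats farthest from the Inhbb median these were -0.402 and 0.24.

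Over the whole table, the genes whose log2 level followed Inhbb most closely across the 24 rats were Klhl38, a kelch-like gene of striated muscle (r = 0.948), Rbm39, a splicing factor (r = 0.925), Ccdc66 (r = 0.914), Acad11, an acyl-CoA dehydrogenase (r = 0.914), and Acer2, an alkaline ceramidase (r = 0.895). These values are a description, since the points share the difference between saline and CC rats. Within groups, r was 0.824 for Klhl38 and 0.494 for Acer2. Klhl38 stood at 34.4 CPM in CC-Ex replicate 4 and between 55.3 and 135.0 CPM in the other CC-Ex rats, beside 19.7 to 46.1 CPM in the saline rats. Klhl38 was picked for following Inhbb over these same rats, so its low value in this rat is not a separate observation.

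For Mstn the closest genes were Actn3, which encodes the alpha-actinin of fast fibres (r = 0.892), Atp1b2, a sodium pump subunit (r = 0.875), Zc4h2 (r = 0.865), RGD1308706 (r = 0.862) and Foxp3 (r = 0.857). Within groups these were about as high, at 0.879 for Actn3 and 0.868 for Atp1b2. The CC-Sed rats with 2.23 and 4.23 CPM of Mstn had 3014 and 3105 CPM of Actn3, and those with 56.7 and 71.6 CPM had 18280 and 12540 CPM. The 8 analysed of 10 fast-fibre markers, Actn3 among them, summed to between 68190 and 173400 CPM in CC-Sed, and the part of fibre type in the Mstn spread was not tested.

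**Figure D3:**
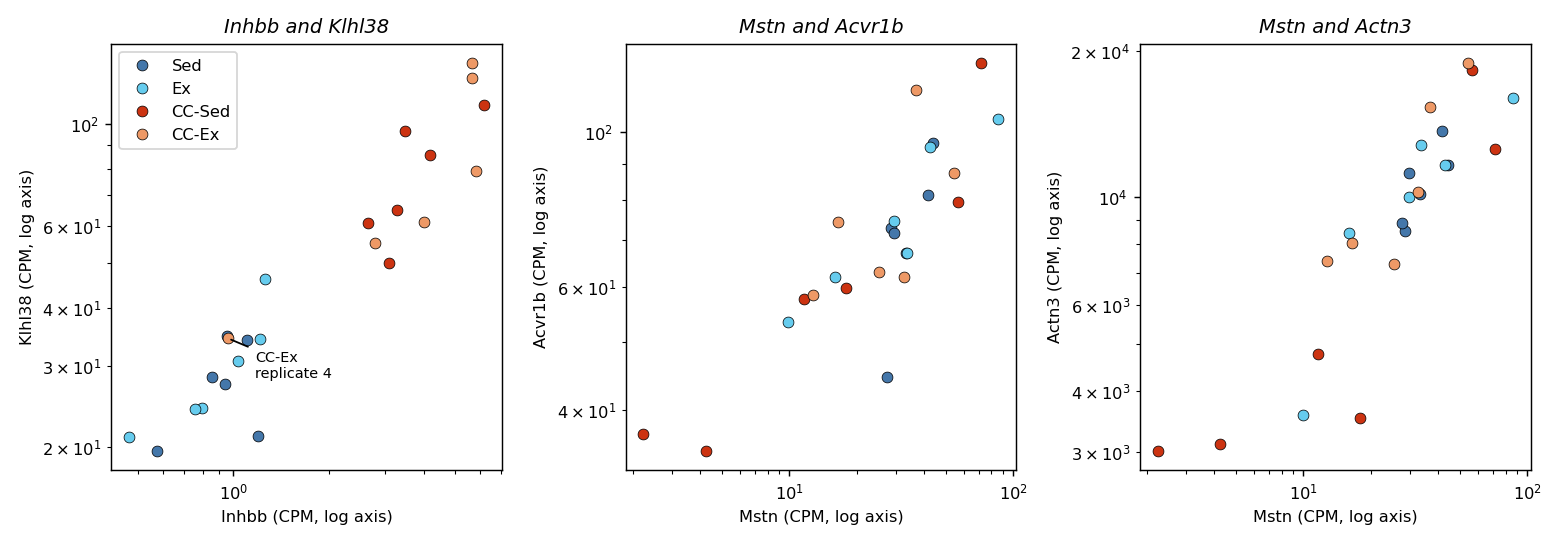
Levels in CPM on log axes, 1 point per rat, coloured by group, for Inhbb and Klhl38 (left), Mstn and Acvr1b (middle) and Mstn and Actn3 (right). On the left the saline rats and CC-Ex replicate 4 lie together at the lower end and the other CC rats at the upper end, whereas in the other panels the groups are mixed and the CC-Sed rats reach the lowest values.

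The wider activin, TGF-beta and bone morphogenetic protein (BMP) pathway was followed in a list of 107 further genes, of which 81 were analysed and 26, among them Inhba and Gdf15, were not analysed here. The list was chosen with earlier results of these rats known, so its counts and p-values, here and in the next paragraphs, are a description. In Sed vs. CC-Sed, 2 of the 81 passed with higher levels, where 4.3% of all genes did, and 1 with a lower level, where 2.16% did. The higher ones were Crebbp, a coactivator of Smads (log2 fold change 0.54, edgeR adjusted p = 0.00834), and Smad1, a BMP effector (0.47, edgeR adjusted p = 0.0201). The lower one was Rgma, a BMP co-receptor (-0.71, edgeR adjusted p = 0.037). With 1 rat left out, 1 to 10 were higher and 0 to 6 lower, the most for CC-Sed replicate 4 and next for replicate 2, at 6 and 4. The share of all genes that passed in either direction moved as well, from 1.59% to 15.9% over these fits. It was 15.9% without CC-Sed replicate 4 and 12% without replicate 2. Among the genes with the smallest p-values of their role that did not pass, Atf3 had 1.69 (edgeR adjusted p = 0.134), Bmp5 -0.76 (0.134), Tgfb2 -0.42 (0.238), Smad4 0.28 (0.291) and Smad5 -0.07 (0.546). None of the 81 passed in Ex vs. CC-Ex with edgeR over all rats, but that comparison as a whole went from 108 to 847 genes past the adjusted p-value without CC-Ex replicate 4, and then 5 of the 81 were higher and 3 lower. Without CC-Ex replicate 1 these were 5 and 2, where 4.6% of all genes passed. With any other trained rat left out none passed, where 0.0184% to 0.452% of all genes did. The median log2 fold change over the 81 was -0.02 in sedentary and -0.10 in trained rats.

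For the mean of both monocrotaline effects, 14 of the 81 were higher, where 17.2% of all genes were, and 13 were lower, where 10.6% were. Without CC-Ex replicate 4 these counts were 15 and 14, and over all fits with 1 rat left out 10 to 15 and 12 to 17. In those fits 20.3% to 35.3% of all genes passed in either direction. Among the other ligands, 1 of the 8 analysed passed, Tgfb3, with a lower level (log2 fold change -0.60, edgeR adjusted p = 0.00204). Of the 14 other receptors and co-receptors, 2 were higher and 4 lower. Tgfbr1, the type I receptor for TGF-beta (0.42), and Tgfbr3, its co-receptor betaglycan (0.43), were higher, while the BMP receptors Acvr1 (-0.48) and Bmpr1a (-0.36), the co-receptor Rgma (-0.56) and Amhr2, the receptor for anti-Mullerian hormone (-0.68), were lower. Of the 18 other binding and processing genes, 2 were higher and 4 lower. Furin, a protease that cleaves the precursors of these ligands, was higher (0.73, edgeR adjusted p = 0.00386), with 60.3 to 109 CPM in CC-Sed beside 49.0 to 56.5 CPM in Sed, and with 53.1 to 191.6 CPM in CC-Ex beside 44.5 to 56.1 CPM in Ex. The sedentary groups did not overlap and the trained groups did. Lrrc32, which holds latent TGF-beta at the cell surface, was higher as well (0.32). Bambi, a decoy receptor, was lower (-0.82, edgeR adjusted p = 0.00541), as were Fstl1 (-0.93), the latent TGF-beta binding protein Ltbp3 (-0.43) and the BMP binder Twsg1 (-0.24).

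Smad1 was the only one of the 4 other Smads to pass over all rats (0.38, edgeR adjusted p = 0.00264), in contrast to the lower Smad2 and Smad3. Smad4 had 0.30 over all rats (edgeR adjusted p = 0.0664) and passed without CC-Ex replicate 4 (0.34, edgeR adjusted p = 0.0374). Of 26 Smad regulators, 7 were higher and 2 lower, counts to be read against the 17.2% and 10.6% of all genes. The higher ones were Tgif1, a Smad corepressor (2.23, edgeR adjusted p = 0.00319), Ppp1r15a, a phosphatase subunit that Smad7 can bring to the type I receptor (1.31), Zfyve9, an anchor that presents Smad2 and Smad3 to the receptor (0.54), Nedd4l and Wwp2, ubiquitin ligases of Smads (0.53 each), Trim33 (0.41) and Usp4 (0.17). The lower ones were Ldlrad4 (-0.54) and Usp15, a deubiquitinase (-0.23). Of 11 targets and partners, 2 were higher and 2 lower. Crebbp (0.46, edgeR adjusted p = 0.000395) and Cdkn1a, a cell-cycle inhibitor (1.53, edgeR adjusted p = 0.04), were the higher ones. Postn, a matrix protein and TGF-beta target (-1.81, edgeR adjusted p = 0.00953), and Id2, a BMP target (-0.39, edgeR adjusted p = 0.0443), were lower, the latter not without CC-Ex replicate 4 (edgeR adjusted p = 0.0586). Fibroblast markers (10 of 10 analysed), whose cells make Postn, had median sums of 2162 CPM in Sed, 1626 CPM in CC-Sed, 2918 CPM for Ex and 1340 CPM for CC-Ex, with 4 of 10 lower for the mean effect, where 10.6% of all genes were, and overlapping ranges. Their part in the Postn and Smad3 results was not tested.

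**Figure D4:**
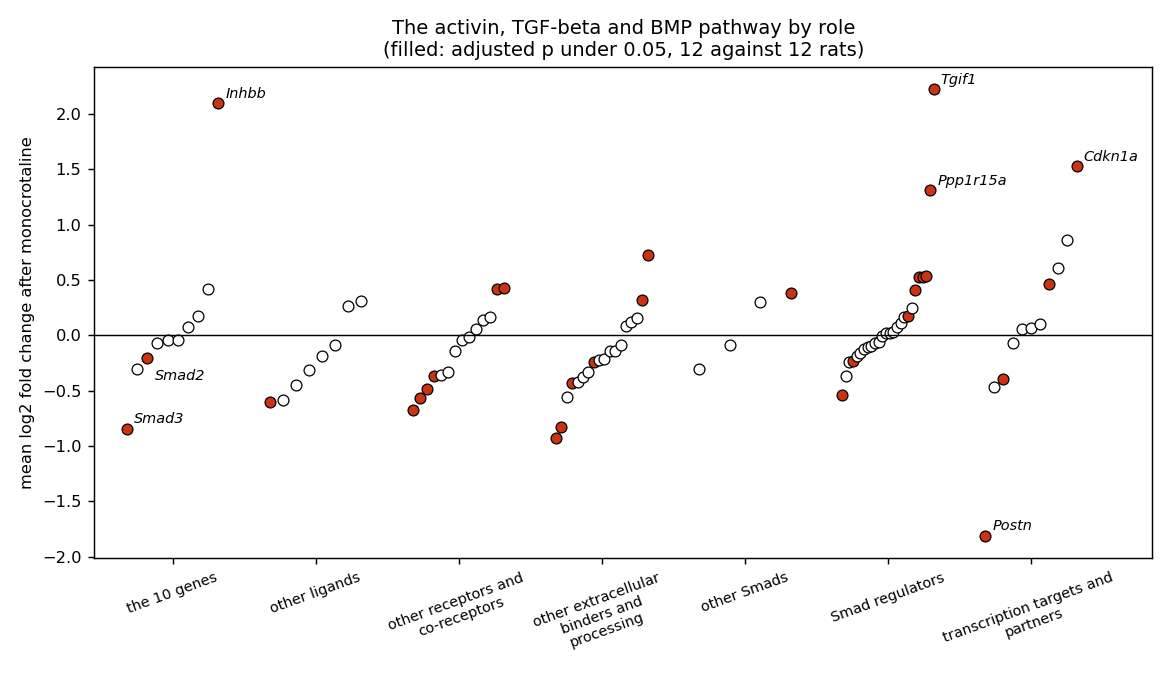
Mean of the sedentary and trained log2 fold changes after monocrotaline (vertical axis) for the 10 genes and the 81 other pathway genes, grouped by role (horizontal axis). Filled points had an edgeR adjusted p-value under 0.05 over 24 rats (for Inhbb and the 81 pathway genes this is a description). Inhbb at 2.10 is the only ligand, receptor or binder past 1, and the other value past 2 is that of Tgif1.

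Genes of muscle growth and breakdown that respond to activin and to other signals were listed as well, and 17 of 18 were analysed. This list was drawn up with earlier results of these rats known, so its counts and p-values are a description. In Sed vs. CC-Sed, 6 were higher, where 4.3% of all genes were, and 2 lower, where 2.16% were. With 1 rat left out these were 2 to 7 and 1 to 3, the fewest without CC-Sed replicate 6. In those fits 1.59% to 15.9% of all genes passed in either direction. The ubiquitin ligases Fbxo32 (atrogin-1) and Trim63 (MuRF1) had log2 fold changes of 2.62 (edgeR adjusted p = 0.02) and 2.20 (edgeR adjusted p = 0.0479). Foxo1 and Foxo3, which drive these ligases, had 2.40 and 1.62 (edgeR adjusted p = 0.0138 and 0.0137), and Eif4ebp1, a repressor of translation, had 2.09 (edgeR adjusted p = 0.0159). Igf1, a muscle growth factor, had -1.07 (edgeR adjusted p = 0.0153), its receptor Igf1r 1.45 (edgeR adjusted p = 0.0307) and its binding protein Igfbp5 -1.62 (edgeR adjusted p = 0.0491). In Ex vs. CC-Ex, 3 were higher, where 0.875% of all genes were. These were Fbxo32 (3.02), Foxo1 (2.45) and Foxo3 (1.52). None was lower. None of the 17 passed when any 1 of the Ex rats or CC-Ex replicate 5 or 6 was left out, where 0.0184% to 0.0461% of all genes did. Without CC-Ex replicate 3, 2 were higher, where 0.387% of all genes passed in either direction. Without CC-Ex replicate 1, 6 were higher and 1 lower, where 4.6% of all genes passed. Without CC-Ex replicate 4, 7 were higher and 1 lower, where 7.81% of all genes passed. In that last fit Fbxo32 had 3.26, Foxo1 2.66 and Foxo3 1.68. For the mean of both effects, 9 were higher, where 17.2% of all genes were, and 3 lower, where 10.6% were. Among them were also Fbxo30, a ubiquitin ligase (1.33), Foxo4 (0.24), Mtor (0.25) and the myogenic factor Myod1 (-1.38). CC-Ex replicate 4, which had a saline-like Inhbb level, had 86.0 CPM of Fbxo32 and 12.9 CPM of Foxo1, within the Ex ranges of 69.5 to 125.1 and 9.63 to 13.8 CPM. Both genes were among those higher in CC-Sed that set this rat apart, so this is not a separate observation. CC-Sed replicate 4 had 178.9 CPM of Fbxo32 and 16.9 CPM of Foxo1. These also lay within the Sed ranges, of 52.3 to 326.1 and 9.63 to 17.2 CPM. Its Inhbb level, at 3.10 CPM, lay above every saline rat.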

How the data were processed

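Poly-A RNA of the medial gastrocnemius was sequenced in 24 rats. The authors trimmed the reads with Trim Galore, quantified transcripts of the mRatBN7.2 annotation with Salmon and summed these to genes. The deposited expected counts (estimated counts) are whole numbers, none below 10, so genes with a lower count in any rat were not analysed here. Groups and replicate numbers came from the labels. The 13 genes with an identifier but no symbol stayed in the fit.

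Counts of all 10851 genes were scaled by TMM and fitted in edgeR 4.0.16 (R 4.3.3) with a quasi-likelihood model of the 4 groups, and p-values were adjusted by Benjamini-Hochberg over all genes. The biological coefficient of variation was 0.283. The mean of both effects was tested as a contrast. Correlations used log2 CPM (prior count of 2) and 100000 permutations within groups. The correlations over 45 pairs and with slow-fibre markers were added after the data were seen. The model was tested on simulated counts. DESeq2 1.42.0 and limma 3.58.1 served as alternatives.

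The 10 genes and all lists were chosen with earlier results of these data known. Genes are named if they belong to the 10, if they passed in the pathway or muscle growth list in any comparison or had 1 of the 3 smallest p-values there in Sed vs. CC-Sed, or if they were among the 5 most correlated with Inhbb or Mstn. Replicate numbers did not pair the rats. Sequences are from RefSeq (GRCr8), with 8 of 10 genes matched. A gene of the pathway list is not reported here.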

Additional observations from a re-analysis of the deposited data

Results flagged for a closer look

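Of the 40 sets of 6 rats (10 genes in 4 groups), 1 held a rat far from the others by Dixon's ratio, and chance flags about 1 set in 20. This was Acvr2b in CC-Ex, where replicate 2 had 5.35 CPM and the other rats had 2.40 to 3.03 CPM (ratio 0.788, critical value 0.625). The same rat had the highest Smad7 level of all rats, 34.7 CPM.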

How the results depend on the processing

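Over the alternatives, 1345 of 1441 recomputed values were classed as the same, 27 as weaker, 17 as stronger and 52 changed sign. For a single gene or correlation, the same means that direction and side of the threshold were kept. Weaker means that it fell short of the threshold, and stronger that it newly passed. Counts of genes or correlations are among these values and were judged by their size. Of 708 training and interaction values not named in the text, 74 changed sign. Among the 10 genes, 1 met the DEG criteria in both monocrotaline comparisons and for their mean. This was Inhbb, a description here, and none of the other 9 did. In Sed vs. CC-Sed the count was 2 with upper-quartile scaling, which added Smad3, 3 by adjusted p-value alone, and 1 to 2 with a rat left out. In Ex vs. CC-Ex it was 2 with limma-voom, which added Smad3 (-1.06, adjusted p = 0.0106), and 0 with the 12 trained rats alone and with the replicate block, where Inhbb lay at 2.17 and 2.11. For the mean it was 3 by adjusted p-value alone. With at least 50 counts in every rat it was 0 in all of them, because Inhbb no longer passed that filter. Counts over the other 9 genes and the gene lists with a rat left out were added after the data were seen. Of 36 same-numbered pairs of rats, 13 correlated above 0.1, from -0.588 to 0.424, and 9 of 72 matches were best with the own number, so the numbers were not treated as a pairing. Under the replicate block the sedentary Smad3 and Smad2 calls were lost (adjusted p = 0.0516 and 0.0623), and all genes called in Ex vs. CC-Ex numbered 1 in place of 57.

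Reversals concerned genes near 0. In Sed vs. CC-Sed, Fstl3 was -0.047 with upper-quartile scaling and -0.015 with limma-voom, and with the slow-fibre covariate Fst was -0.004, Acvr2a 0.042 and Acvr1b 0.017. In Ex vs. CC-Ex, Acvr1b was -0.060 (upper quartile), -0.040 (limma-voom), -0.130 (library number), -0.077 (slow fibre) and -0.016 (50 counts), and Fst was 0.023 (limma-voom). For the mean, Acvr2a was -0.005 (upper quartile), Fst 0.170 (limma-voom) and 0.077 (library number), and Acvr2b -0.018 (library number). The Smad3 interaction was -0.126 with limma-voom. The cause was not tested.

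With a rat left out, reversals gave these ranges. In Sed vs. CC-Sed, Fst was -0.016 to 0.324, Fstl3 -0.073 to 0.123, Acvr2a -0.156 to 0.028 and Acvr2b -0.245 to 0.052. In Ex vs. CC-Ex, Mstn was -0.551 to 0.174, Fst -0.342 to 0.009 and Acvr1b -0.140 to 0.122. For the mean effect, Fst was -0.118 to 0.067 and Fstl3 -0.101 to 0.002. For training, Inhbb was -0.135 to 0.107 and Fst -0.005 to 0.363 in saline rats, and Inhbb was -0.003 to 0.324 in CC rats. The Smad3 interaction was -0.002 to 0.418. The correlation with Inhbb was -0.299 to 0.351 for Fst and -0.138 to 0.166 for Fstl3. Inhbb has 22 to 49 counts per saline rat, which limits its precision.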
